A study of Mus musculus with 6 samples.

Results

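Collagens, laminins and integrins are the genes of the matrix that epithelial cells lay down and of the receptors by which they hold on to it. The genes were taken by symbol, as every collagen chain, laminin chain and integrin subunit among the loci of the 6 libraries, with 1 locus for each symbol. This gave 78 genes among 25001 loci, of which 22601 carry a symbol, and they comprise 44 collagens, 11 laminins and 23 integrins. For Itgae the rule takes a newly assembled locus of 0.230 to 0.783 FPKM on the minus strand. It lies within the span of the annotated gene, which is on the plus strand and stood at 0.201 to 0.376, so it may not measure Itgae. Itgam has no annotated locus in the files and was left out.

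Collagens are secreted as trimers. The fibrillar collagens build the fibres of connective tissue, collagen IV builds the sheet of the basement membrane, collagen VII forms the anchoring fibrils beneath it, and collagen XVII spans the membrane of the basal epithelial cell. A laminin is a trimer of an alpha, a beta and a gamma chain, and Lama3 and Lamb3 belong to the main laminin beneath stratified epithelia. An integrin is a pair of an alpha and a beta subunit. Itga6 with Itgb4 forms the receptor of the hemidesmosome together with Col17a1, Itga3 with Itgb1 binds laminin, Itga2 with Itgb1 binds collagen, and Itga5 with Itgb1 or Itgav with several beta subunits bind fibronectin and other ligands that carry an RGD sequence. The thymic epithelium rests on a basement membrane of this kind.

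The cells were of the mouse thymoma line 427, and RNA sequencing gave 6 libraries, 1 for each condition. Cells of the pSUPER vector line received DMSO, or PMA at 1 µM to induce ectodomain shedding of epithin/PRSS14 (gene St14), for 2 h after 2 h of serum deprivation. PMA is a phorbol ester that activates protein kinase C. Cells labelled as a knockdown of SPPL2b (KD) were treated in the same way. A second pair of KD libraries came from cells transfected with GFP vector or with GFP vector and Flag-EICD, the intracellular domain of epithin/PRSS14, from which GFP-positive cells were sorted. The labels give the KD genotype as an SPPL2b siRNA, whereas the methods describe clones with a stable shRNA in pSUPER, so that a KD line is 1 clone and any difference from 427 cells can also be that of the clone. With 1 library for each condition there is no replicate check, no p-value is given, and each difference describes a pair of libraries.

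The libraries held an estimated 24500000 to 28400000 fragments, and 10555 to 10873 loci reached 1 FPKM. Sppl2b was not lower in the libraries labelled KD, at an FPKM of 13.4, 9.37, 11.4 and 13.2 against 9.90 and 6.86 in 427 cells, so "KD" names the label only. On the other strand the Sppl2b locus overlaps that of Lsm7, which was at 33.6 to 64.9 FPKM in the libraries labelled KD and 69.5 and 74.3 in 427 cells, and fragments of the shared stretch cannot be told apart without strand. According to the methods, the knockdown clones were tested for SPPL2b mRNA by quantitative PCR, which is not part of these data. St14 rose from 69.6 with GFP to 614.5 FPKM with EICD, whose construct shares its sequence. All 9 of 9 thymic epithelial markers were at 1 FPKM or more in every library, with a summed level of 6668 to 15218. Of 8 thymocyte markers only Rag1 reached 1 FPKM and Cd3e, Cd4 and Thy1 were listed at 0, so the sum was 1.96 to 3.72. None of 5 endothelial markers reached 1 FPKM. Of 6 fibroblast markers Twist2 and, in the unsorted KD libraries alone, Pdgfrb reached 1 FPKM, Lum was listed at 0, and the sum was 12.6 to 31.9. Of 5 myeloid markers Cd68, Csf1r and Cd14 reached 1 FPKM, Adgre1 was listed at 0, and the sum was 7.01 to 12.2.

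Promoters of genes that moved together or by a large fold in the comparisons that follow are shown here, so that the letters upstream of their starts can be seen beside the values. Each is the 250 bases before a RefSeq transcript start on GRCm38.p6, written 5′ to 3′ on the strand of the gene. Itga2, Itgb6, Lamb1 and Itga3 are shown for their change with PMA and Col17a1 for its change in the sorted cells, and they were chosen with these values known. Capitals mark a match to GGGCGG, the core of a GC box, or to a κB-like motif (GGG, any 2 bases, T, any 2 bases, CC), on either strand. The letters TGANTCA, an AP-1 site, were searched as well, since PMA is known to act on AP-1, and none of the 5 stretches holds them. Itga2 lies at chr13:114932101-114932350 on the minus strand, Itgb6 at chr2:60722604-60722853 on the minus strand, Lamb1 at chr12:31265043-31265292 on the plus strand, Itga3 at chr11:95076715-95076964 on the minus strand and Col17a1 at chr19:47692043-47692292 on the minus strand.
Itga2: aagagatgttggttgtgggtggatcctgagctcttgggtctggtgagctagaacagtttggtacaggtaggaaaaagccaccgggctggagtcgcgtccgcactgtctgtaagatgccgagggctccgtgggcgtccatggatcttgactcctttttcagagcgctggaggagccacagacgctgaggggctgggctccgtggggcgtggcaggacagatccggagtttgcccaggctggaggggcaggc
Itgb6: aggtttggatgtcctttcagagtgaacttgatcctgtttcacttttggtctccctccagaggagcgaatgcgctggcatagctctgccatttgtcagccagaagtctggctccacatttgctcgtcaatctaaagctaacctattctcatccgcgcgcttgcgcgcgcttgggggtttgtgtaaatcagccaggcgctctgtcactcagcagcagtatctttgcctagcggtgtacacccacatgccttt
Lamb1: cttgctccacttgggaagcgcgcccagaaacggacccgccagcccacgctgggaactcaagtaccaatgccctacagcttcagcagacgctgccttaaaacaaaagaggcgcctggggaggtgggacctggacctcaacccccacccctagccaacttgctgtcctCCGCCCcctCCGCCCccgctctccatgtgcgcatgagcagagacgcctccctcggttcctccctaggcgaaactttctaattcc
Itga3: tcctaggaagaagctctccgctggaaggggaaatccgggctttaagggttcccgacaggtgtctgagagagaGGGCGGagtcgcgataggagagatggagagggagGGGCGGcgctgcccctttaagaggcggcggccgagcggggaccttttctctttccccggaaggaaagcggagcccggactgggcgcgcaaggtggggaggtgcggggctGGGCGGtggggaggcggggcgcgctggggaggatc
Col17a1: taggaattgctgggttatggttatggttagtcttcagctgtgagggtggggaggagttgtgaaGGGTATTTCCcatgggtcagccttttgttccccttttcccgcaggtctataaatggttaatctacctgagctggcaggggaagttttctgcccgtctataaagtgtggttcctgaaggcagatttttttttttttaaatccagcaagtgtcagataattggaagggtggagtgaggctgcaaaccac

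In these stretches Itga3 holds 3 copies of GGGCGG, the nearest starting 35 bases before the start, and Lamb1 holds 2 copies on the opposite strand, the nearest starting 75 bases before it. Col17a1 holds 1 κB-like match, 187 bases before its start, and Itga2 and Itgb6 hold none of these letters. The GC content was 46% for Col17a1, 52% for Itgb6, 60.8% for Itga2, 62% for Lamb1 and 67.6% for Itga3. Of the 78 genes, 55 were in the promoter table, among them 24 of the 32 that reached 1 FPKM. Over windows of 250 bases before to 50 after a start, GGGCGG stood in 35.7% of 32851 windows and in at least 1 window of 32 of the 55 genes (58.2%). The κB-like motif stood in 18.4% of windows and for 15 of the 55 genes (27.3%), and TGANTCA in 7.81% of windows and for 4 genes (7.27%), which were Col6a1, Itga3, Itga9 and Itgax. For Itga3 the TGANTCA match lies at a second start, away from the stretch shown. A gene with several starts has several windows, so the shares of genes are not counted in the same way as the shares of windows.

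Of the 78 genes, 32 reached an FPKM of 1 in at least 1 library and 26 did so in every library. FPKM (fragments per kilobase of exon, scaled to the fragments of the library) allows for length, so levels can be set side by side between genes. Of the others, 17 lay between 0.1 and 1 FPKM at their highest, and 29 stayed under 0.1 in every library, with 5 of them listed at 0 in all libraries. The expressed genes were 15 of 44 collagens, 7 of 11 laminins and 10 of 23 integrins. The plot of levels shows expressed genes in every library.

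**Figure D1:**
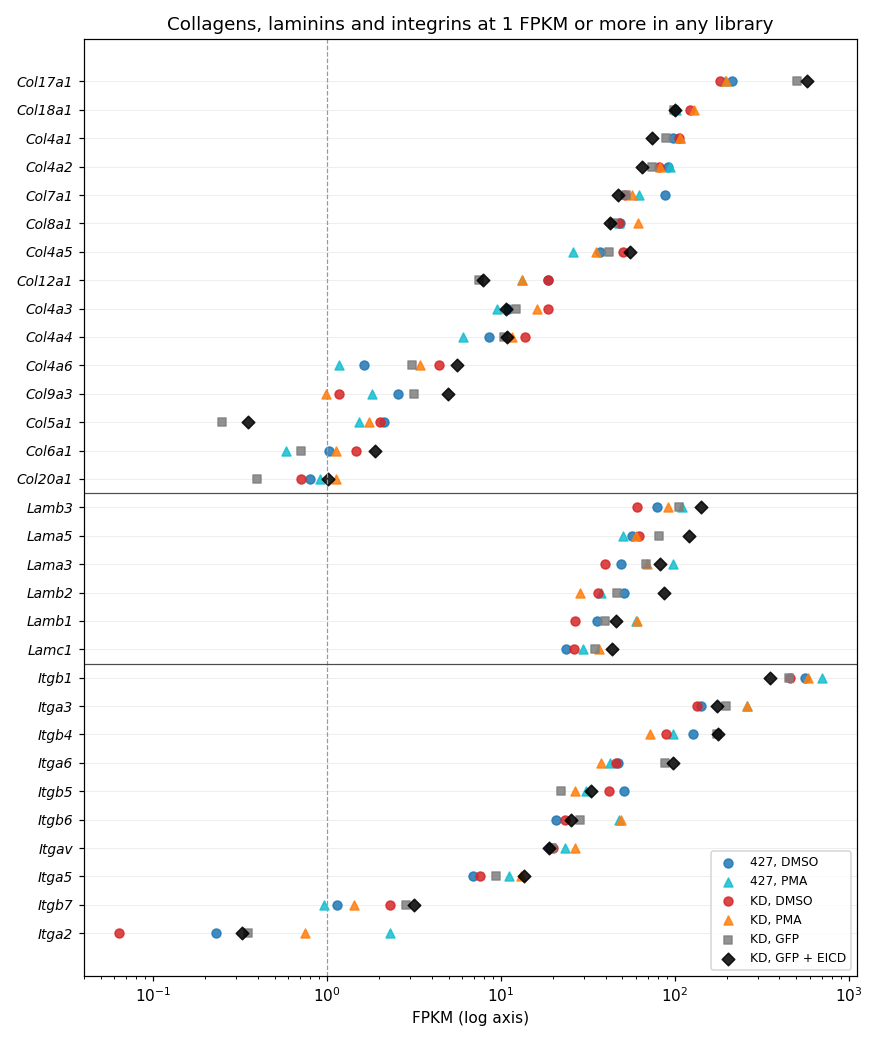
FPKM on a log axis for collagens (top), laminins (middle) and integrins (bottom) that reached 1 FPKM in at least 1 library, with 1 point for each of the 6 libraries and a dashed line at 1 FPKM. Itgb1 stands highest at 352 to 702 FPKM, the laminins shown lie above 20 FPKM in every library, and Itga2 and Col5a1 show the widest spread.

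Among the collagens, those of the basement membrane and of epithelial anchoring stood highest. Col17a1 (chromosome 19, 47646344 to 47692359), the transmembrane collagen of the hemidesmosome, was at 215 and 196 FPKM in 427 cells with DMSO and PMA, 183 and 198 in the KD libraries with DMSO and PMA, 503 with GFP and 578 with EICD. The 4 unsorted libraries lay close together and both sorted libraries lay above all of them. Col17a1 made up 26 to 29.5% of the summed collagen FPKM in the unsorted libraries, 53.3% with GFP and 57.3% with EICD. Col18a1, whose C-terminal part is the endostatin fragment, varied least of all 26 genes expressed throughout, from 99.0 to 129 FPKM, a ratio of 1.30 between the highest and the lowest library.

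All 6 collagen IV chains were at 1 FPKM or more in every library, and together they made up 22 to 38.9% of the collagen FPKM. The ubiquitous chains Col4a1 and Col4a2 ran at 74.2 to 108 and 65.0 to 93.8 FPKM, with a ratio of Col4a1 to Col4a2 of 1.07 to 1.31. These neighbours on chromosome 8 are read in opposite directions from starts 21 bases apart. Col4a3 and Col4a4, chains of the tissue-restricted network, ran at 9.52 to 18.6 and 6.06 to 13.8 FPKM. Col4a5 and Col4a6, whose starts lie 1343 bases apart on chromosome X, stood far apart in level, at 26.0 to 55.7 against 1.17 to 5.56 FPKM, a ratio of 10 to 22.9.

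Col7a1, the anchoring fibril collagen (chromosome 9, 108953586 to 108984875), was at 88.1 FPKM in 427 cells with DMSO, 62.7 with PMA, 51.5 and 56.8 in the KD libraries with DMSO and PMA, 52.5 with GFP and 47.5 with EICD. The DMSO library of 427 cells was the highest and the others lay within 47.5 to 62.7. Col8a1, a short-chain network collagen, ran from 42.6 to 61.4 FPKM. Col12a1, a collagen that decorates the surface of fibrils, ran from 13.2 to 18.7 in the unsorted libraries and was at 7.51 and 7.87 in the sorted ones.

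Collagens of connective tissue were low. Of 11 fibrillar collagens only Col5a1 reached 1 FPKM, and the fibrillar group made up 0.172 to 0.509% of the collagen FPKM. Col1a1, Col1a2 and Col3a1, the main chains of connective tissue fibres, reached at most 0.199, 0.274 and 0.109 FPKM. Of 6 collagen VI chains, which form beaded filaments, only Col6a1 reached 1 FPKM, at 0.579 to 1.89. Of 9 fibril-associated collagens, Col12a1, Col9a3 (0.989 to 4.999) and Col20a1 (0.398 to 1.13) did so.

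Of the laminins, Lama3, Lama5, Lamb1, Lamb2, Lamb3 and Lamc1 were among those expressed in every library. The chains of the epidermal laminin ran at 61.0 to 142 FPKM for Lamb3 and 39.6 to 98.4 for Lama3. Of the more widespread chains, Lama5 ran at 50.6 to 120 FPKM, Lamb2 at 28.6 to 86.6, Lamb1 at 26.8 to 60.6 and Lamc1 at 23.8 to 43.5. Lama3 and Lama5 shared the alpha-chain sum, with Lama3 at 39 to 66% of it. Lama1, Lama2, Lama4 and Lamc3, chains of other basement membranes, stayed at or under 0.153 FPKM.

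Among the integrins, Itgb1 (chromosome 8, 128685101 to 128733200), the common beta subunit, was at 564, 702, 458, 587, 452 and 352 FPKM in 427 cells with DMSO and PMA, in the KD libraries with DMSO and PMA, with GFP and with EICD. Itgb1 made up 59.6 to 79.7% of the summed beta-subunit FPKM. Itga3, the laminin-binding partner of Itgb1, was the leading alpha subunit, with 57.1 to 76.7% of the alpha sum. Itga6 and Itgb4, the hemidesmosome pair, ran at 37.5 to 98.1 and 72.5 to 177 FPKM. The exons of Itgb4 share 537 of 7015 bases with an antisense gene, B230344G16Rik, whose reads cannot be told apart without strand.

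The subunits that bind RGD ligands followed. Itgav was the steadiest, at 18.8 to 26.7 FPKM, with Itgb5 at 22.2 to 50.8, Itgb6 at 20.7 to 49.0 and Itga5 at 6.89 to 13.6. Itga2, the collagen-binding subunit, ran from 0.0637 to 2.30 FPKM. Of the integrin subunits of leukocytes and platelets, Itgb7 ran from 0.964 to 3.17 FPKM and the others listed here were low. The Itgae locus taken here reached 0.783 FPKM at most, Itgb2 0.723, Itgb3 0.206, Itgal 0.0779 and Itgax 0.0325, and Itgad was listed at 0.

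Many of the genes expressed throughout varied between libraries. Of the 26 at 1 FPKM or more in every library, 14 (53.8%) differed by over 2-fold between the highest and the lowest library, with a median ratio of 2.20, whereas 27% of 9832 loci with a symbol did so, with a median ratio of 1.61. The widest of the 26 was Col4a6, with a ratio of 4.75. These ratios span all treatments, both lines and the sorting, and were not tested.

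**Figure D2:**
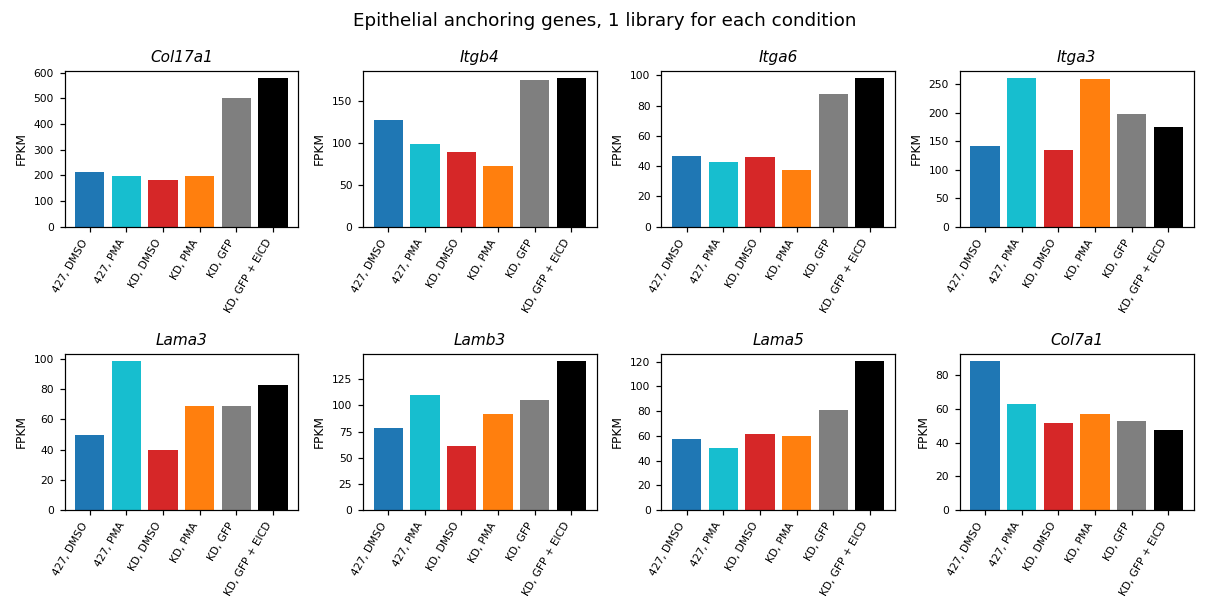
FPKM of 8 genes of the hemidesmosome, the anchoring fibril and laminins in the 6 libraries, 1 bar for each library, with each axis starting at 0. Col17a1, Itga6 and Itgb4 are highest in the 2 sorted libraries, Itga3 and Lama3 are higher with PMA than with DMSO in both lines, and Col7a1 is highest in 427 cells with DMSO.

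The first question was how PMA, given to induce shedding, moved these genes in 427 cells. A collagen receptor subunit and the beta subunit of an epithelial RGD receptor rose over 2-fold and no gene of the families fell over 2-fold. Itga2 (chromosome 13, 114833171 to 114932125) went from 0.229 FPKM with DMSO to 2.30 with PMA, a log2 fold change of 3.27, with a 95% exact counting interval of 2.87 to 3.79 from an estimated 43.7 and 465 fragments. Itgb6 (chromosome 2, 60598279 to 60722643), the epithelial partner of Itgav, went from 20.7 to 47.8 FPKM, a log2 fold change of 1.21 with an interval of 1.14 to 1.27, and 0.96 when both libraries were scaled to the same FPKM sum. For both genes the PMA library lay above the DMSO library by more than counting error. Fragments were estimated from the longest transcript and are upper estimates, and the interval covers counting error only.

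Of 31 collagens, laminins and integrins at 1 FPKM or more in either library, 2 were more than 2-fold higher (6.45%), beside 3.91% of 10643 loci with a symbol, and 0 were more than 2-fold lower, beside 4.67%. A log2 fold change is log2 of the ratio of FPKM values after 0.01 was added to both. Their median log2 fold change was -0.14, and that of all loci was -0.12. By family the medians were -0.48 for 14 collagens, 0.31 for 7 laminins and 0.29 for 10 integrins. In the DMSO and PMA libraries of 427 cells 3 of 14 collagens, 5 of 7 laminins and 6 of 10 integrins lay above 0.

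Several laminin chains and laminin receptor subunits came close to a 2-fold change. Lama3 went from 49.4 to 98.4 FPKM (log2 fold change 0.99, interval 0.97 to 1.02), Itga3 from 141 to 261 (0.88), Lamb1 from 35.6 to 60.1 (0.75) and Itga5, the fibronectin receptor subunit, from 6.89 to 11.2 (0.69). Lamb3 was at a log2 fold change of 0.48, and Lamc1 was at 0.31. The hemidesmosome genes moved little or the other way, with Itgb4 at -0.37, Itga6 at -0.14 and Col17a1 at -0.14. As a result, the ratio of Itga3 to Itga6 was 3.02 with DMSO and 6.12 with PMA, and that of Lama3 to Lama5 was 0.865 and 1.95.

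Among the genes that were lower with PMA in 427 cells, none passed 2-fold. The largest differences were Col6a1 at a log2 fold change of -0.82 (1.03 to 0.579 FPKM) and Itgb5, another partner of Itgav, at -0.73 (50.8 to 30.7 FPKM). Col4a5, Col4a4, Col4a6, Col12a1, Col7a1, Col9a3 and Col5a1 lay between -0.53 and -0.48. Col4a1, Col4a2, Col8a1 and Col18a1 lay between -0.02 and 0.12. Of the summed beta-subunit FPKM, Itgb6 made up 2.71% with DMSO and 5.42% with PMA, and Itgb5 made up 6.65% and 3.49%.

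The same treatment in the libraries labelled KD, which share no library with the pair from 427 cells, also raised Itgb6 over 2-fold. It went from 23.3 to 49.0 FPKM, a log2 fold change of 1.07 with an interval of 1.01 to 1.14. Lamb1 (chromosome 12, 31264984 to 31329644), the beta chain of the widespread laminins, went from 26.8 to 60.6, a log2 fold change of 1.18 with an interval of 1.12 to 1.23. These 2 of 31 genes (6.45%) were more than 2-fold higher, beside 3.51% of 10624 loci, and 0 were more than 2-fold lower, beside 5.69%. The median was 0.023 for the 31 genes and -0.15 for all loci, with 5 of 7 laminins above 0 at a median of 0.48 and 15 collagens at a median of -0.20.

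Itga2 stayed under 1 FPKM in both KD libraries and is therefore in no count here. It was listed at 0.0637 FPKM with DMSO and 0.750 with PMA, from an estimated 11.5 and 150 fragments. In both lines the PMA library held more Itga2 than the DMSO library. The log2 fold change was 3.37 in the KD libraries (interval 2.65 to 4.48), beside 3.27 in 427 cells. The levels with DMSO and with PMA were both higher in 427 cells.

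Side by side, 27 of 30 genes measured in both lines moved to the same side of 0 (90%), beside 81.7% of 10422 loci. Itgb6 was the 1 gene past 2-fold in both lines. Itga3 was at log2 fold changes of 0.88 and 0.96 in 427 and KD libraries, Lama3 at 0.99 and 0.80, Itga5 at 0.69 and 0.79, Lamb3 at 0.48 and 0.59, and Itgb1 at 0.32 and 0.36. On the lower side, Itgb5 was at -0.73 and -0.65, Col4a5 at -0.53 and -0.52 and Col12a1 at -0.49 and -0.50. Col17a1, Col7a1 and Col8a1 lay on opposite sides of 0 in the lines. The largest difference between the lines was that of Col7a1, at -0.49 in 427 cells and 0.14 in the KD libraries, and the difference was not tested.

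**Figure D3:**
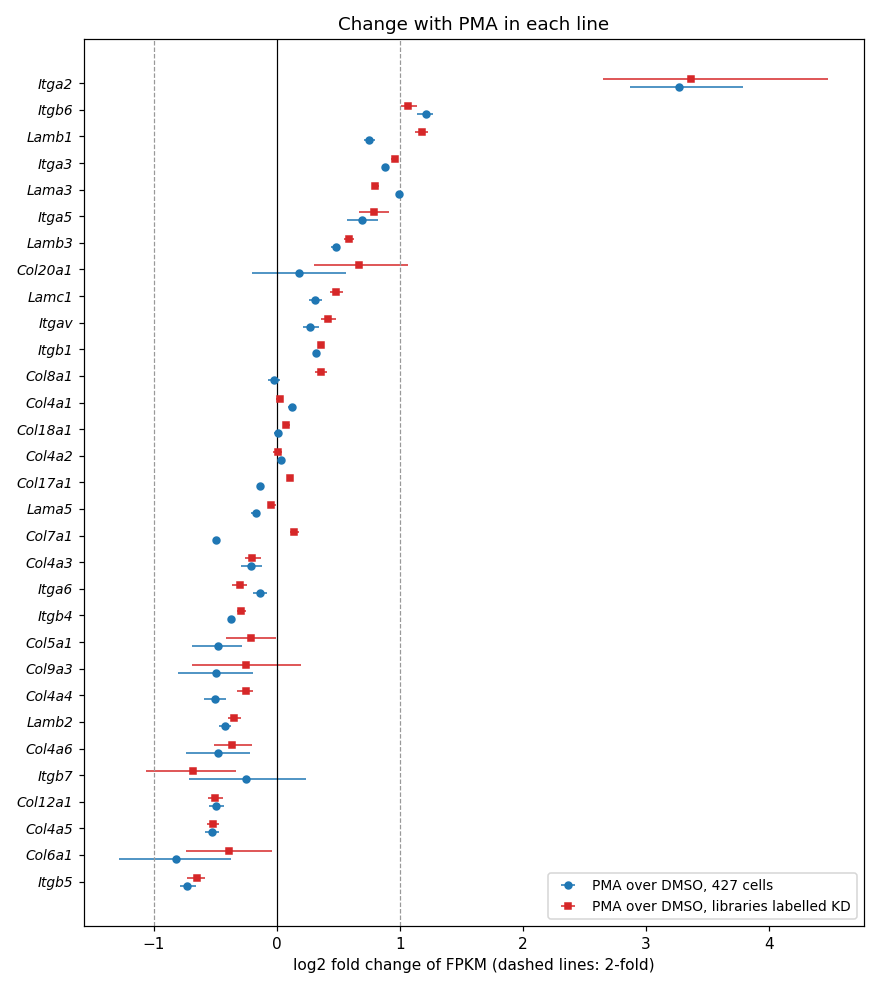
Log2 fold change of FPKM with PMA over DMSO in 427 cells (circles) and in the libraries labelled KD (squares) for genes that reached 1 FPKM in any of the 4. Bars are 95% exact counting intervals, which leave out the variation between cultures, and dashed lines mark a 2-fold change. Itga2, Itgb6 and Lamb1 lie at the top, Itga3 and Lama3 follow, and Itgb5 lies on the lower side in both lines.

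The genes that act with these families moved in part with PMA. Among 22 expressed adaptors that link integrins to the cytoskeleton, Tns4, a tensin of epithelial adhesions, was more than 2-fold higher in both lines (log2 fold change 1.13 and 1.09). Dst, which encodes a plakin that ties Itgb4 to keratin filaments, was lower (-1.43 and -1.42). Plec, which encodes another such plakin, was higher within 2-fold (0.56 and 0.74). Of 11 other matrix receptors, Cd44, the hyaluronan receptor, and Sdc4, a syndecan of focal adhesions, were higher in both lines, Cd44 by 2.07 and 2.37 and Sdc4 by 1.38 and 1.32 on the log2 scale, and none was more than 2-fold lower, with Sdc3 lowest at -0.76 and -0.69. Of 16 expressed genes that process collagen, 0 passed 2-fold in either direction in either line, and Lox, which crosslinks collagen, was the lowest at -0.94 and -0.91. Of the other matrix proteins, Spp1 (osteopontin) was higher in both lines (1.17 and 1.37) and Ntn4 was lower in the KD libraries (-2.79), and the 10 others measured in each line stayed within 2-fold. In 427 cells Ntn4 was under 1 FPKM in both libraries and in no count, at 0.954 with DMSO and 0.246 with PMA. Serpinh1, the chaperone of collagen, was listed at 0 in 5 libraries and at 0.0615 FPKM with EICD, and a value of 0 in these files can be a failed estimate.

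Marker levels moved with PMA as well. Of the thymic epithelial markers, Cldn4 was more than 2-fold higher in both lines (log2 fold change 2.14 and 1.62), Krt18 was so in 427 cells (1.26, and 0.78 in the KD libraries), and the lowest was Foxn1 at -0.78 and -0.91. Twist2, the 1 fibroblast marker at 1 FPKM or more in every library, was higher in both lines (1.22 and 1.33), and Rag1 was lower in 427 cells (-1.01). Of the myeloid markers at 1 FPKM or more none passed 2-fold. The part of these markers in the values of Itga2, Itgb6 and the laminins was not tested.

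The comparison of the libraries labelled KD with 427 cells asked whether the lines differ in these genes before and after PMA. Collagen IV chains of the restricted network stood higher in the KD libraries in both pairs. Col4a6 (chromosome X, 141164970 to 141474087) was at 1.63 FPKM in 427 cells and 4.38 in KD with DMSO, a log2 fold change of 1.42 (interval 1.23 to 1.62), and at 1.17 and 3.42 with PMA, a log2 fold change of 1.54 (1.32 to 1.77). With each library scaled to the same FPKM sum the values of Col4a6 were 2.39 and 2.78. Col4a4 was at 0.68 and 0.93, Col4a3 at 0.76 and 0.77 and Col4a5 at 0.43 and 0.44 on the log2 scale, while Col4a1 stood at 0.11 and 0.01 and Col4a2 at -0.17 and -0.20. Both KD libraries lay above both 427 libraries for Col4a3, Col4a4 and Col4a6. The Sppl2b value was not lower in the libraries labelled KD, and the overlap with Lsm7 limits what it shows about the knockdown. The differences are given for the lines as labelled, and line, clone and targeting cannot be told apart.

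With DMSO, 2 of 30 genes were more than 2-fold higher in the KD library (6.67%), beside 3.11% of 10706 loci, and 1 was more than 2-fold lower (3.33%), beside 2.76%. The other higher gene was Itgb7, at 1.15 and 2.31 FPKM, which sits on the 2-fold line (log2 fold change 1.00, interval 0.63 to 1.42, from an estimated 82.5 and 158 fragments). The lower gene was Col9a3, a chain of a fibril-associated collagen, at 2.55 and 1.18 FPKM (-1.11, interval -1.49 to -0.76). With PMA, 1 of 32 was higher (3.12%), beside 2.19% of 10518 loci, and 1 was lower (3.12%), beside 2.75%. The higher gene was Col4a6 and the lower one Itga2, at 2.30 FPKM in 427 cells and 0.750 in KD cells (-1.60, interval -1.89 to -1.35). Scaled to the same FPKM sum, Col9a3 was at -0.14 with DMSO and Itga2 at -0.37 with PMA, both within 2-fold.

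Several anchoring and laminin genes lay on the lower side in the KD libraries without passing 2-fold, on the deposited scale. Scaled to the same FPKM sum, every log2 fold change between the lines is higher by 0.97 with DMSO and by 1.2 with PMA, which puts these genes on the higher side. Scaling to the same upper quartile or to a median change of 0 moves them by -0.031 and -0.046 with DMSO. With PMA these scalings move them by 0.015 and -0.023. As deposited, Itgb4 was at log2 fold changes of -0.52 with DMSO and -0.44 with PMA, Lama3 at -0.32 and -0.51, Lamb2 at -0.48 and -0.40 and Lamb3 at -0.37 and -0.25. Col7a1 was at -0.77 with DMSO and -0.14 with PMA. Not all hemidesmosome genes did so in both pairs. Col17a1 was at -0.23 with DMSO and above 0 with PMA, at 196 FPKM in 427 cells and 198 in KD. Itga6 was at 46.9 FPKM in 427 cells and 46.2 in KD with DMSO, and at 42.6 and 37.5 with PMA. Of 30 genes measured in both pairs, 26 lay on the same side of 0 with DMSO and with PMA (86.7%), beside 75.4% of 10379 loci. The medians over the families' genes were -0.019 with DMSO and 0.014 with PMA, beside 0.046 and 0.024 for all loci.

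**Figure D4:**
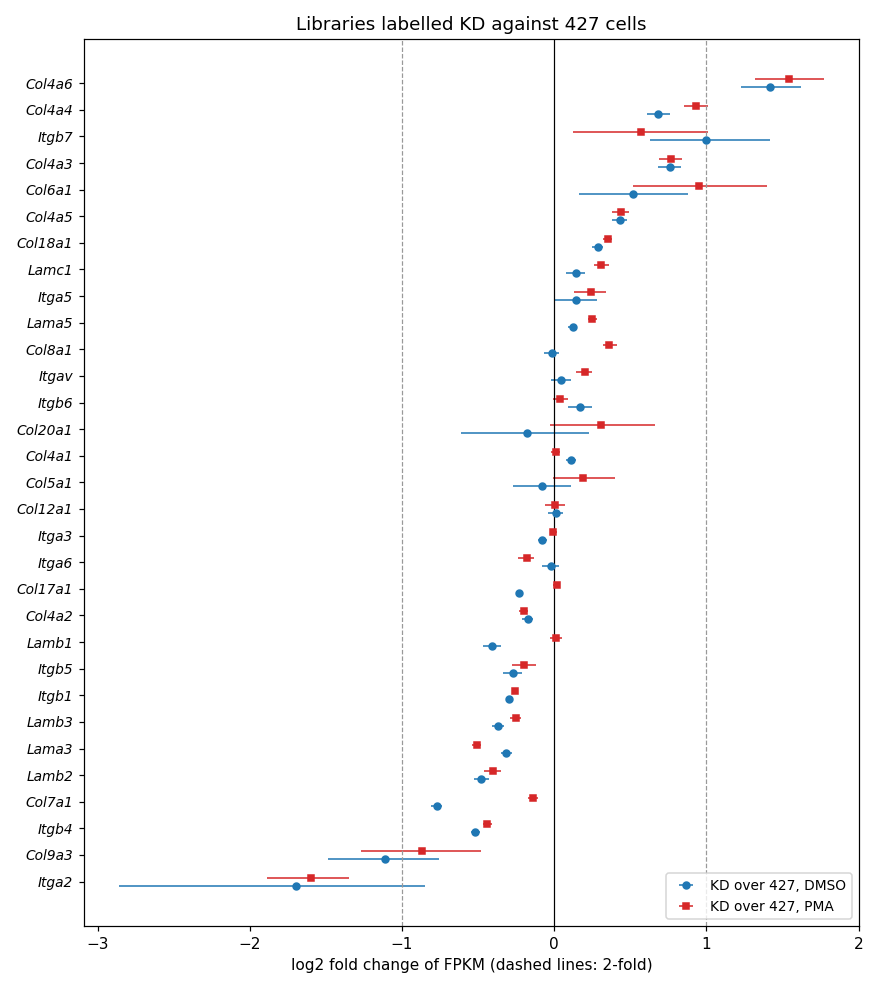
Log2 fold change of FPKM in the libraries labelled KD over 427 cells with DMSO (circles) and with PMA (squares), with 95% exact counting intervals and dashed lines at a 2-fold change, on the deposited scale. Col4a6, Col4a4 and Col4a3 lie to the right in both pairs, and Itga2, Col9a3 and Itgb4 lie to the left in both.

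Among partner genes, Pcolce, which enhances the processing of procollagen, was at 18.4 FPKM in 427 cells and 96.2 in the KD library with DMSO, and the log2 fold changes were 2.39 with DMSO and 2.41 with PMA. It was the 1 gene of 16 for collagen processing past 2-fold. Ddr2, a collagen receptor kinase, was higher in both pairs (1.24 and 1.21), and the syndecans Sdc2 (-1.79 and -1.91) and Sdc3 (-1.72 and -1.65) were lower. Tns4 was lower in both pairs (-1.01 and -1.04), and of the other matrix proteins Thbs2, Sparc and Npnt were higher and Tnc was lower with DMSO, whereas Thbs2 alone passed 2-fold with PMA. Among the markers, Krt8 was more than 2-fold higher in the KD libraries (1.96 with DMSO and 1.56 with PMA), as was the fibroblast marker Pdgfrb (1.75 and 2.00), which was at 0.445 and 0.488 FPKM in 427 cells and 1.52 and 1.99 in the KD libraries. No other marker at 1 FPKM or more passed 2-fold in these pairs on the deposited scale. The part of the markers in the values of the collagen IV chains was not tested.

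The GFP library was set against the KD library with DMSO because both come from cells with the KD label. The labels and methods give differences in transfection, sorting, serum deprivation and DMSO. The methods name the clone of the transfected cells, whereas the labels of the unsorted KD libraries name none, so the clone may differ as well. The parts of all these cannot be told apart. Col17a1 went from 183 to 503 FPKM, a log2 fold change of 1.46 (interval 1.44 to 1.48), and the pair it works with lay just inside 2-fold. Itgb4 went from 88.6 to 174 FPKM (0.98) and Itga6 from 46.2 to 87.5 (0.92). Col5a1, the fibrillar collagen, went from 2.01 to 0.2495 FPKM, a log2 fold change of -2.96 (interval -3.47 to -2.60, from an estimated 429 and 51.3 fragments).

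Col12a1 was also lower, at 18.7 and 7.51 FPKM (-1.31, interval -1.39 to -1.24), and Col6a1 at 1.48 and 0.710 (-1.05, interval -1.49 to -0.65). Col9a3 was higher, at 1.18 and 3.15 FPKM (1.41, interval 1.07 to 1.79). Thus 2 of 30 genes were more than 2-fold higher (6.67%), beside 3.56% of 10687 loci, and 3 were more than 2-fold lower (10%), beside 4.14%. By family, 7 of 7 laminins lay above 0, at a median of 0.41, and 3 of 14 collagens did, at a median of -0.29, while the median of all loci was -0.079. Lama3 and Lamb3 were both at 0.79 and Lamb1 at 0.57, and Itgb5 was at -0.92.

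Marker levels moved beside these values. Of the thymic epithelial markers Krt5, Krt14 and Trp63, all of the basal layer, were more than 2-fold higher in the GFP library (log2 fold change 1.33, 1.10 and 1.04), and Krt8 was lower (-1.12). Pdgfrb, a fibroblast marker, was at 1.52 and 0.0380 FPKM, and Twist2 was higher (1.15). Of the myeloid markers Csf1r was lower, at 6.10 and 2.46 FPKM (-1.31). Their part in the values of Col17a1 and Col5a1 was not tested. Lox was at 50.01 and 14.4 FPKM (-1.80), Tns4 was higher (1.54), and Spp1 (-2.01), Npnt (-1.75) and Thbs1 (-1.45) were lower.

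The last comparison set the library with EICD against that with GFP, both from sorted KD cells. The expressed laminin chains lay mostly on the higher side and none passed 2-fold. Lamb2 went from 46.5 to 86.6 FPKM (log2 fold change 0.90, interval 0.85 to 0.94), Lama5 from 80.8 to 120 (0.57) and Lamb3 from 106 to 142 (0.43). With EICD, Lama3, Lamb1 and Lamc1 were at 0.27, 0.20 and 0.32. In all, 6 of 7 laminins lay above 0, at a median of 0.32, beside a median of 0.067 over all loci. The EICD library held the highest level of Lama5, Lamb2, Lamb3 and Lamc1 among the 6.

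The genes past 2-fold were 2 low collagens. Col6a1, a beaded filament chain, went from 0.710 to 1.89 FPKM (log2 fold change 1.42, interval 1.03 to 1.84, from an estimated 71.2 and 198 fragments). Col20a1, a fibril-associated collagen, went from 0.398 to 1.02 FPKM (1.37, interval 0.87 to 1.86, from 48.8 and 130 fragments). They were 2 of 30 genes (6.67%), beside 3.58% of 10682 loci, and 0 were more than 2-fold lower, beside 0.506%. For EICD over GFP, 0.01 was added to the EICD library only. The GFP values of Col6a1 and Col20a1 lay below those of the KD library with DMSO, and this comparison and the one before share the GFP library.

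Integrins stayed within 2-fold with EICD. Itgb1 was the lowest of the families, at 452 and 352 FPKM (log2 fold change -0.36, interval -0.38 to -0.34). Itgb5 went from 22.2 to 33.1 FPKM (0.58) and Itga5 from 9.40 to 13.6 (0.53), while Itgb4 (0.02), Itgav (-0.08), Itgb6 (-0.16) and Itga3 (-0.17) lay near 0. Of the collagens, Col17a1 went from 503 to 578 FPKM (0.20), Col4a6 from 3.09 to 5.56 (0.85) and Col9a3 from 3.15 to 4.999 (0.67), and Col4a1 and Col4a2 were at -0.26 and -0.18. Of partner genes, Ddr2 was higher (1.76 to 5.14 FPKM, 1.55), as was Ntn4 (0.997 to 2.56, 1.37), and Pcolce2 was lower (5.62 to 2.31, -1.28). No adaptor of 22 passed 2-fold. Of 9 thymic epithelial markers, Krt8 was more than 2-fold lower (143 to 70.2 FPKM, -1.02) and 0 were more than 2-fold higher, with a median of -0.25. No other marker at 1 FPKM or more passed 2-fold. The part of these markers in the values of the laminins was not tested.

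**Figure D5:**
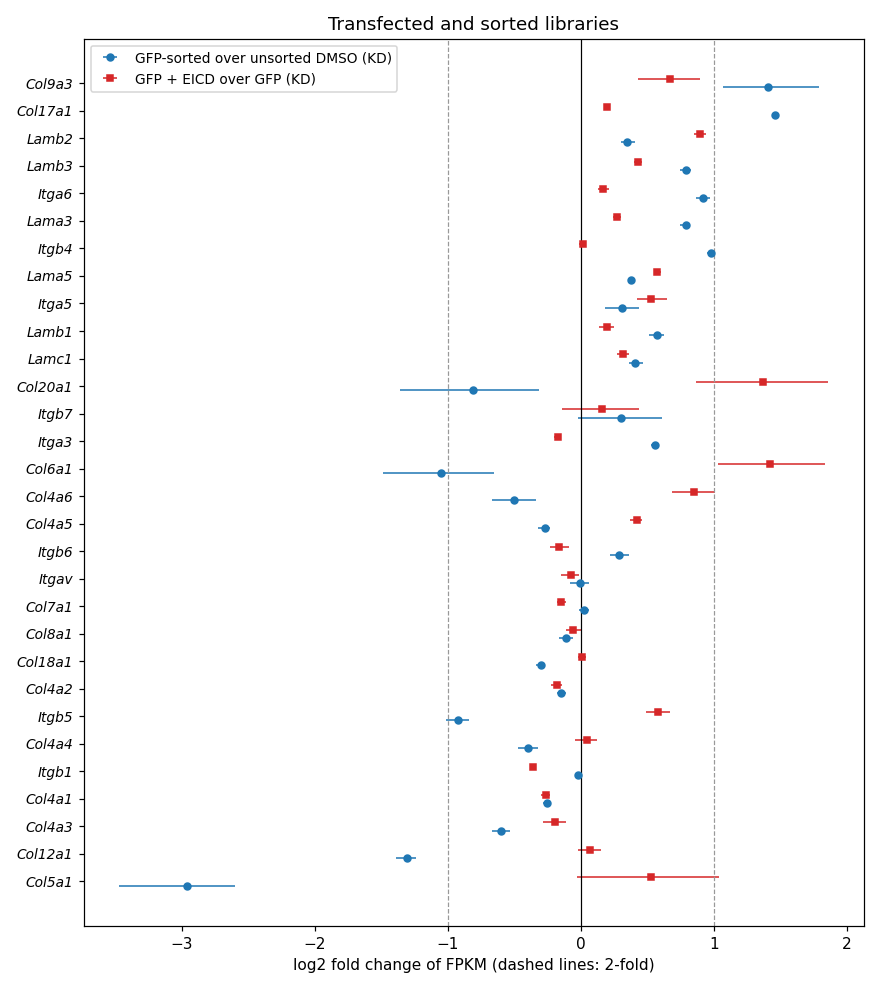
Log2 fold change of FPKM of the GFP library over the unsorted KD library with DMSO (circles) and of EICD over GFP (squares), with 95% exact counting intervals and dashed lines at a 2-fold change. The comparisons share the GFP library. Col17a1 and Col9a3 lie highest and Col5a1 lowest for GFP over unsorted cells, and Col6a1 and Col20a1 lie highest for EICD over GFP.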

How the data were processed

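RNA sequencing of 427 cells gave 6 libraries, grouped by the labels, with 1 library for each of 6 conditions. The authors deposited FPKM per locus for each library, from paired-end reads. The submitters' processing notes name TopHat2 2.1.1, Cufflinks 2.1.1 and Cuffdiff 2.1.1 on GRCm38, with newly assembled isoforms, and also STAR 2.4.0b, whose role is not given in the sources used here. Whether counting used strand is not given either, so overlapping genes may share fragments. FPKM depends on these gene models and on the scaling of each library, in which 10 loci held 85.6 to 94.2% of the sum.

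Members were found by symbol, and the members, gene lists and comparisons were chosen with earlier results of these data known. The software was pandas 2.3.3, NumPy 2.4.6, SciPy 1.17.1 and, for plots, matplotlib 3.10.9, under Python 3.11.15. The amount added was 0.01, to both libraries, or to the EICD library only for EICD over GFP at 0.01 FPKM or more with GFP. Genes were counted at 1 FPKM or more in either library of a pair, and called past 2-fold, beside the same share over all loci with a symbol. No p-value was computed, because FPKM values are not counts and each condition has 1 library. Depth was estimated from the steps of the lowest FPKM values, and fragments per gene from the longest GENCODE M21 transcript. They give the 95% exact binomial intervals. The script was tested on simulated data.

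The genes named were those at 1 FPKM or more in any library, with interval and fold for those past 2-fold, the largest changes of each partner list, and Sppl2b and St14 as label checks. Values of other members near 2-fold were added after they had been seen, as were the promoters shown. Alternatives were 0.001, 0.1 or 1 added, minima of 0.1 or 10 FPKM, scaling to the same upper quartile, to a median change of 0 or to the same FPKM sum, and all loci as background. Promoters are from RefSeq, GRCm38.p6. Protein sequences were not used here. A few gene values are not reported here or plotted, while counts and medians include them.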

Additional observations from a re-analysis of the deposited data

Results flagged for a closer look

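With PMA, 3 collagens lay on opposite sides of 0 in the lines, and the other genes measured in both lines lay on the same side. Col8a1 was at -0.02 in 427 cells and 0.36 in the libraries labelled KD. Col17a1 was at -0.14 on the log2 scale in 427 cells and 0.11 in the libraries labelled KD. Col7a1 was at -0.49 in 427 cells and 0.14 in the libraries labelled KD. Each line has 1 library for each treatment, so the difference was not tested. The median over all loci was -0.12 in 427 cells and -0.15 in the KD libraries.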

How the results depend on the processing

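No gene past 2-fold changed sign, and of the summary values 112 stayed and 47 moved, as did 72 and 26 of the values for single genes past 2-fold. Medians over the members lie near 0 and 4 changed sign: PMA in 427 cells (0.02 at a minimum of 10 FPKM), KD over 427 with DMSO (0.95 with the same FPKM sum) and with PMA (-0.009 with a median change of 0), and EICD (-0.02 with the same FPKM sum). A minimum of 0.1 FPKM gave more genes over 2-fold higher and lower, as it did over all loci with a symbol, where the shares were 5.85 to 7.79% higher and 2.71 to 9.88% lower. Of 44 to 46 members, they were 6 and 1 for PMA in 427 cells, 6 and 3 for PMA in KD, 4 and 3 for KD over 427 with DMSO, 4 and 4 with PMA, 5 and 1 for EICD, and 6 and 7 for GFP over KD, where the median was 0.01, while the EICD median was 0.29. A minimum of 10 FPKM, with 0.714 to 3.2% of all loci higher and 0.197 to 2.58% lower, left 1 higher gene for PMA in 427 cells (Itgb6), 0 and 0 for KD over 427 with DMSO and with PMA, 0 higher for EICD, and 1 and 1 for GFP over KD (Col17a1 and Col12a1), with medians of 0.02 and 0.11 for PMA in 427 and KD and 0.032 for EICD. With 1 added, 0 genes were higher for EICD (Col6a1 0.76 and Col20a1 0.53), 1 was higher for GFP over KD, and for KD over 427 1 was higher and 0 lower with DMSO and 0 lower with PMA. Itgb7 left the 2-fold call, to 1 higher gene, with 0.1 added and with upper quartile or median scaling.

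Scaling to the same FPKM sum moves KD over 427 by 0.97 with DMSO and 1.2 with PMA on the log2 scale, by its construction. It gave 13 and 24 genes higher, 0 and 0 lower, and medians of 0.95 and 1.3, so levels between lines depend on whether the FPKM sum is used. The shares over all loci under this scaling are not given, so these counts are no result about the families. Upper quartile and median scaling moved the same pairs by -0.031 and -0.046 with DMSO and by 0.015 and -0.023 with PMA. For PMA in 427 cells the same FPKM sum gave 1 higher and 1 lower gene and a median of -0.39 (Itgb6 0.96). For EICD it gave a median of -0.02. Scaling to a median change of 0 gave medians of -0.027 and 0.16 for PMA in 427 and KD, 0.1 for EICD and 0.23 for GFP over KD. No paired analysis was possible because the conditions share fewer than 2 replicate numbers, with 1 library each, and none could be left out. Depth limits the low genes, and Col5a1 in the GFP library had an estimated 51.3 fragments (-2.59 with 0.1 and -1.27 with 1 added).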
